A study of Mus musculus with 10 samples.

Results

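Potassium channel genes were compared between cochleae of 2 mouse genotypes. The members are the protein-coding genes whose mouse symbol starts with Kcn, without Kcnq1, Kcne1 and Kcnj10, which act in strial potassium handling. Of 99 Kcn genes among the 54532 genes of the deposited table, 94 were protein-coding and 91 were members. Of these, 77 had at least 10 counts in at least 5 libraries and were tested together with all other such genes, 18061 in all. By family, 39 members form voltage-gated pores (Kv), 14 inwardly rectifying pores (Kir), 14 leak channels with tandem pore domains (K2P) and 8 calcium-activated pores and their relatives. The other 16 are accessory subunits.

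The tissue was the soft part of the cochlea, the hearing organ, from female mice on postnatal day 1, with both ears of 1 animal in each library. Control mice were Esrrgfl/fl, with both copies of Esrrg (a nuclear receptor gene) flanked by loxP sites. The second genotype was Esrrgfl/fl;Sox10-Cre, so that the floxed alleles are shared and the Cre transgene is the labelled difference. Cre acts where Sox10 regulatory sequence is active, which includes the otic epithelium, glia and melanocytes. Each genotype had 5 libraries.

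Potassium channels let potassium leave or enter a cell along its electrochemical gradient and so set the resting potential and end the action potential. Kv channels open on depolarization, Kir channels pass current best near rest, K2P channels carry a leak, and calcium-activated channels link calcium entry to repolarization. In the cochlea they shape the firing of spiral ganglion neurons and the receptor potential of hair cells, and they carry potassium through the lateral wall into the endolymph.

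Library totals ran from 33487089 to 41779836 counts. Esrrg itself was higher in the libraries labelled cKO, at 58.5 ± 6.64 CPM (counts scaled to library size) in controls and 89.7 ± 15.2 CPM in the second group (SD, n = 5 each). Its log2 fold change was 0.62 (SE 0.118), at an edgeR adjusted p of 0.0292 and an exact two-sided permutation p of 0.00794, the smallest that 252 assignments allow. The adjusted p was above 0.05 in 6 of 10 fits that left out 1 library. The level of the targeted gene thus runs against the label, but the count adds up all exons, those outside any deleted part included. A swap of labels and a deletion that leaves most of the transcript cannot be told apart from it. The cause of the higher level was not tested. The group is named by its label only, and each direction below depends on that label. Control 2 lay far from the others on the leading principal component (-29.5, the other controls -4.23 to 6.82) and had the highest summed erythroid markers, at 2930 CPM with 443 to 2221 CPM in the other 9 libraries. No gene of the fixed marker lists for hair cells, supporting cells, marginal and intermediate cells, neurons and glia was at 0 in all libraries.

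The level of each member was read as FPKM (fragments divided by gene length and by library size), which allows comparison between genes. Kcnk1, a K2P subunit, was highest at 16.1 ± 1.51 FPKM over all 10 libraries (SD), with a range of 14.0 to 19.2. Its range did not overlap that of the next member, Kcns1, a modifying Kv subunit that is silent on its own, at 10.2 ± 1.30 FPKM. Kcnh2, the ERG channel of cardiac repolarization, followed at 8.56 ± 1.40 FPKM, and from Kcns1 downward each of the 10 highest members overlapped its neighbour in range. They included Kcnab2, a beta subunit of Kv channels (6.09 ± 0.748), Kcna6 (5.66 ± 0.859), Kcnj8, the pore of vascular ATP-sensitive channels (5.62 ± 0.794), and Kcne4, a single-span accessory subunit (5.25 ± 1.22). Kcnk2, a mechanically gated leak channel, had 4.20 ± 0.249 FPKM, and Kcne1l had 3.29 ± 0.474 FPKM. The 10 highest members held 48.2% of the summed FPKM of all 91, while 51 members had a mean under 1 FPKM.

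By family, Kv genes held 45.1% of the summed member FPKM, accessory genes 19.8%, K2P genes 19.4%, Kir genes 9.62% and calcium-activated genes 6.06%. All members together took 0.0722% of all counts. The 14 members that were not tested had at most 24 counts in any library and took 0.168% of the member counts. They were Kcna7, Kcng3, Kcnv1 and Kcnv2 among Kv genes, Kcnj1, Kcnj5 and Kcnj6 among Kir genes, Kcnk7, Kcnk12, Kcnk15, Kcnk16 and Kcnk18 among K2P genes, and the BK accessory genes Kcnmb1 and Kcnmb3.

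**Figure D1:**
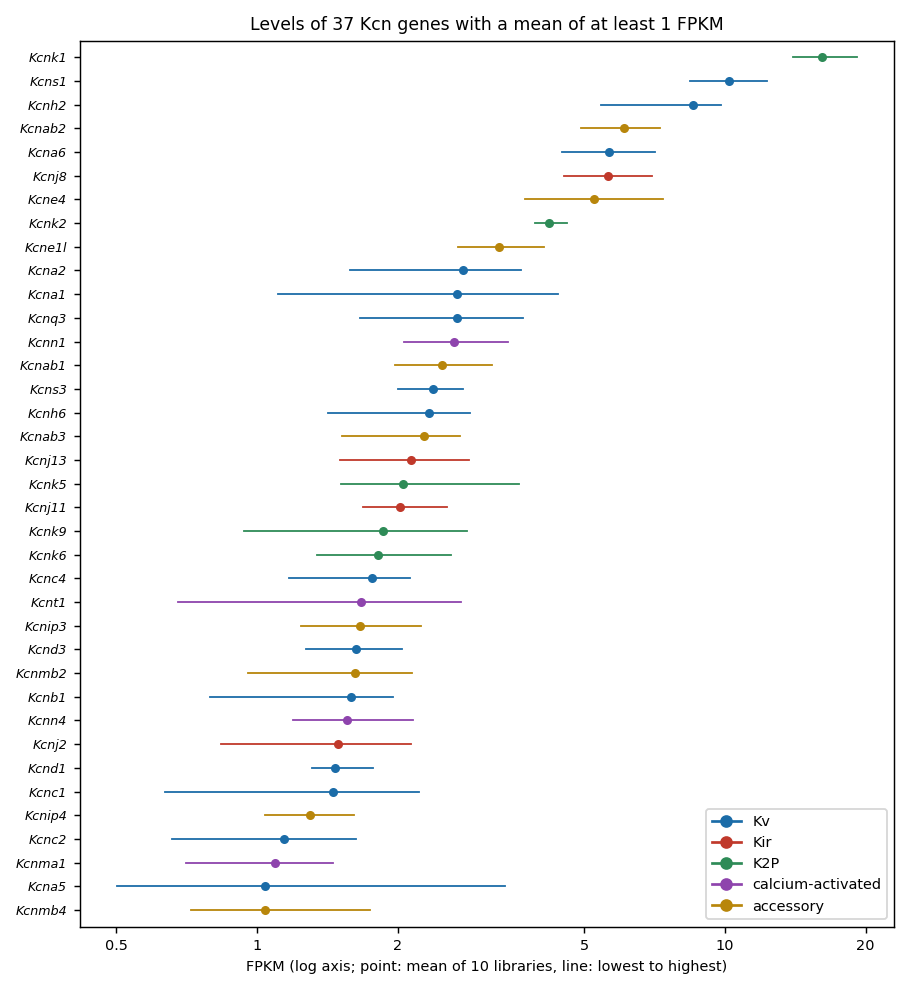
FPKM on a log axis of 37 of the 40 members with a mean of at least 1 FPKM, coloured by family; points are means of the 10 libraries and lines run from the lowest to the highest library. Kcnk1 stands alone at the top at 16.1 FPKM, and the ranges of the members after it overlap their neighbours in the upper part of the plot.

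Between genotypes, 1 of 77 tested members was called at an edgeR adjusted p under 0.05, with 1 lower (Kcnj3) and 0 higher in the libraries labelled cKO. Of all genes tested, 0.543% were called lower and 0.072% higher, and 1 member of 77 is 1.3%. Below that threshold the members leaned one way. At an unadjusted p under 0.05, 18 members had a negative log2 fold change, 23.4% of those tested against 5.62% of all genes. In the positive direction 2 members did, 2.6% against 3.81% of all genes, and in either direction 20 members did, against 9.43% of all genes. The positive count was 6 without cKO 2 (3.87% of all genes in that fit), 4 with limma-voom and 1 without cKO 5, and the negative count was 13 to 20 with 1 library left out. The log2 fold change was below 0 for 52 of 77 members (67.5%), against 52.3% of all genes, and its median was -0.15 against -0.01. The members' median was -0.09 without cKO 4 and -0.06 on log2(FPKM + 1). CPM of the genotypes did not overlap for 4 members with a negative fold change (5.19%, all genes 1.66%) and for 1 with a positive one (1.3%, all genes 1.13%). The number called lower moved with the method in both directions. DESeq2 called 4 members, limma-voom 9, and edgeR without control 2 called 4, with 18, 25 and 20 at an unadjusted p. Of all 18061 genes, these fits called 307, 352 and 194 in either direction, against 111 in edgeR with all libraries. The number of members called lower was 0, with Kcnj3 lost, for limma on log2(FPKM + 1) and with the replicate number as a block. It was also 0 in edgeR without control 1, 3 or 5 or cKO 2, 4 or 5. Those fits called 94, 97 and 51 to 72 of all genes.

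**Figure D2:**
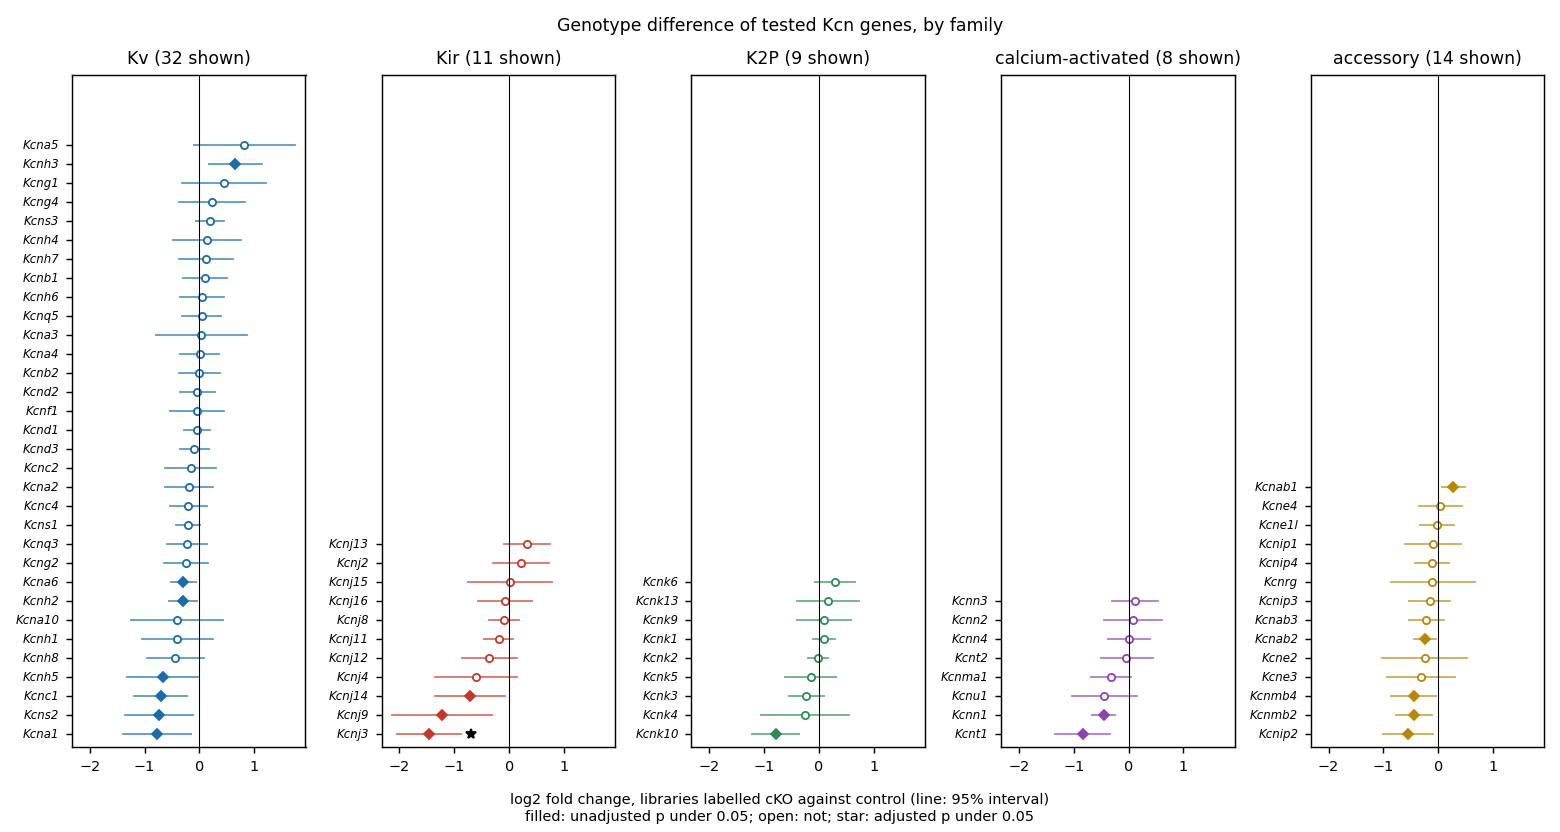
Log2 fold change of the libraries labelled cKO against control for 74 of the 77 tested members, in 5 panels by family, with 95% intervals as lines. Filled symbols have an unadjusted p under 0.05 and the star marks Kcnj3, the one member called after adjustment.

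The called member belongs to the Kir family. Kcnj3 (ENSMUSG00000026824; GRCm38 chromosome 2, 55435970 to 55598145, plus strand) encodes a GIRK subunit, part of the potassium channels that G protein beta-gamma subunits open below inhibitory receptors. Control libraries 1 to 5 held 93, 45, 45, 49 and 71 counts, and the libraries labelled cKO held 23, 24, 28, 20 and 11. In CPM these were 2.18, 1.25, 1.31, 1.36 and 1.82 against 0.690, 0.687, 0.698, 0.510 and 0.298. Every library labelled cKO lay below every control. Kcnj3 fell 2.75-fold, a log2 fold change of -1.46 (SE 0.269, 95% interval -2.04 to -0.88) at an edgeR adjusted p of 0.0242. With 1 library left out, the log2 fold change ran from -1.54 to -1.30; the adjusted p exceeded 0.05 when that library was control 1, 3 or 5 or cKO 2, 4 or 5, and was highest, 0.0789, for cKO 4. Exons of Kcnj3 overlap those of Gm26794 on the opposite strand, which had 1 to 16 counts.

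GIRK channels are tetramers of several subunits. The partner Kcnj9 was low, with 15, 36, 25, 44 and 51 counts in controls and 10, 6, 22, 9 and 26 in the libraries labelled cKO. Kcnj9 had a log2 fold change of -1.22 (SE 0.422), an unadjusted p of 0.012 and an adjusted p of 0.344, and control 1 lay within the range of the second group. The other partners, Kcnj6 and Kcnj5, had at most 5 and 2 counts in any library and were not tested. Over 11 tested Kir members the median was -0.19 (-0.10 for genes with at least 1 CPM in 5 libraries). Of the 11, 3 had an unadjusted p under 0.05, all with negative fold changes (all genes 5.62%). The third was Kcnj14, at 1.03 ± 0.186 CPM in controls and 0.624 ± 0.263 in the libraries labelled cKO (log2 fold change -0.71, SE 0.302). The most abundant Kir gene, Kcnj8, had a log2 fold change of -0.10 with a 95% interval of -0.37 to 0.18.

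The sequence before the start of 3 members with no overlap between genotypes is shown because Esrrg encodes a receptor that binds a known DNA element. RefSeq windows on GRCm38.p6 were used, 250 bases upstream of the start, 5′ to 3′ on the gene's strand. Capitals mark the core motif AGGTCA on either strand. The windows lie at chr2:55435720-55435969 (plus strand) for Kcnj3, chr8:70863259-70863508 (minus strand) for Kcnn1, and chr12:98575128-98575377 (minus strand, an inner start) for Kcnk10.
Kcnj3: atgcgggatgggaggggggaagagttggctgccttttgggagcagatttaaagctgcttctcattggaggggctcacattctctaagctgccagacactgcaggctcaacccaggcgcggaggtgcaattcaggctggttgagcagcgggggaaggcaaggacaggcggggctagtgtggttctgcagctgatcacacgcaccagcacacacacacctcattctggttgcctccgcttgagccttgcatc
Kcnn1: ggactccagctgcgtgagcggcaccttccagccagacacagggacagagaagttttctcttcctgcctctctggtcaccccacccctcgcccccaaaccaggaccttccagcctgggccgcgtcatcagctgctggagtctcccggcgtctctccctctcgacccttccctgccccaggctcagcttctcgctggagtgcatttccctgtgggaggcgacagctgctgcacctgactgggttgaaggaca
Kcnk10: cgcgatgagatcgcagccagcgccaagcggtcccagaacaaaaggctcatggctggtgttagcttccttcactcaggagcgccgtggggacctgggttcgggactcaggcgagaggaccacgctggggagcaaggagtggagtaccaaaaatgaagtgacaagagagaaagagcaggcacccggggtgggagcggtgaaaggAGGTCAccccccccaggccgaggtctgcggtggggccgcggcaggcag
The first 2 windows hold no core motif and the third holds 1. The outer start of Kcnk10, the other Kcnn1 window, the Kcnmb2 window and the 3 Kcnab1 windows, which are not printed, hold 0 each. The inner Kcnk10 window was thus the only one of the non-overlapping members with the core motif. The 3 printed windows therefore overstate its share among them. The full estrogen-related receptor element, searched as TNAAGGTCA on both strands, was in none of the 3. It occurred in 1.14% of all 32851 RefSeq windows and in 1 of 93 windows of the 68 members found there, that of Kcnj16. The core motif AGGTCA, which the full element contains, was in 14.0% of all windows and in 6 of the 93 member windows (6.45%), in Kcna10, Kcnf1, Kcnh1, Kcnip4, Kcnj16 and Kcnk10. The window of Kcnj3 overlaps an exon of Gm26794 and that of Kcnn1 an exon of A230052G05Rik. GC content of the window was 58.4% for Kcnj3, 63.6% for Kcnn1 and 64.0% for Kcnk10, with a median of 58.4% over member windows and 52.4% over all windows.

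Among calcium-activated channels, Kcnn1 (ENSMUSG00000002908; chromosome 8, 70842049 to 70863258), a small-conductance SK subunit of the afterhyperpolarization of neurons, came closest to a call. Its CPM was 12.7, 15.9, 14.5, 14.5 and 12.5 in controls 1 to 5 and 10.2, 10.5, 10.9, 9.46 and 10.2 in the libraries labelled cKO. The groups did not overlap and the second was the tighter, with an SD of 0.529 against 1.41 CPM. The log2 fold change was -0.45 (SE 0.0994, 95% interval -0.67 to -0.24) at an edgeR adjusted p of 0.0663. DESeq2 gave an adjusted p of 0.00127. With 1 library left out, the edgeR adjusted p was 0.0595 to 0.205. An overlapping gene on the opposite strand, A230052G05Rik, with 15 to 66 counts against 340 to 572 for Kcnn1, had a log2 fold change of -1.05 (SE 0.282).

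Kcnt1, the sodium-activated Slack channel of neurons, had 16.5, 12.9, 23.1, 23.8 and 26.3 CPM in controls and 16.9, 10.4, 9.88, 6.45 and 13.5 in the libraries labelled cKO. The groups overlapped through controls 1 and 2 and cKO 1 and 5, and the log2 fold change was -0.84 (SE 0.238, edgeR adjusted p 0.196; DESeq2 adjusted p 0.0300). Kcnma1, the large-conductance BK pore of hair cells, neurons and smooth muscle, had a log2 fold change of -0.32 (95% interval -0.68 to 0.05). The SK genes Kcnn2 and Kcnn3 and the intermediate-conductance gene Kcnn4 had no unadjusted p under 0.05. The median of the 8 tested genes of this family was -0.18, with -0.30 without cKO 1, -0.12 without control 4 or cKO 5 and -0.03 on log2(FPKM + 1).

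Over 35 tested Kv members the median log2 fold change was -0.09 (-0.15 without control 2, -0.19 with limma-voom, -0.05 on log2(FPKM + 1)). Of the 35, 8 had an unadjusted p under 0.05 in the negative and 1 in the positive direction (all genes 5.62% and 3.81%), and 0 were called. Kcna1, a low-threshold channel of auditory neurons that limits firing to onset, had 15.7, 5.33, 19.8, 21.1 and 19.5 CPM in controls and 11.5, 8.13, 11.6, 6.17 and 10.3 in the libraries labelled cKO. Its log2 fold change was -0.77 (SE 0.291, edgeR adjusted p 0.414) and, without control 2, -1.0 with an adjusted p of 0.00637. Control 2 was the lowest control and lay below every library labelled cKO. Among the Kcnc genes, the fast delayed rectifiers of rapidly firing neurons, Kcnc1 was at -0.70 on the log2 fold scale (SE 0.225, edgeR adjusted p 0.298). Control 2 was again the lowest control, at 9.61 CPM with at least 16.9 CPM in the others. Without control 2 the adjusted p of Kcnc1 was 0.0512.

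Kcna1, Kcns2, Kcnh5 and Kcnh3, and in other families Kcnj14, Kcnn3, Kcnn4, Kcnmb4, Kcnip2 and Kcnab3, were named after their values were seen. Among the other Kv genes with an unadjusted p under 0.05, log2 fold changes were -0.30 for Kcna6 and for Kcnh2, both among the 10 highest, -0.74 for Kcns2 and -0.67 for Kcnh5, with edgeR adjusted p of at least 0.357. The positive one was Kcnh3, at 0.65 (SE 0.226) on 25 to 63 counts; its exons overlap those of Mcrs1, which had 3160 to 4055 counts and a log2 fold change of 0.00. Kcns1, the most abundant Kv gene, had a log2 fold change of -0.21 (95% interval -0.43 to 0.01).

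**Figure D3:**
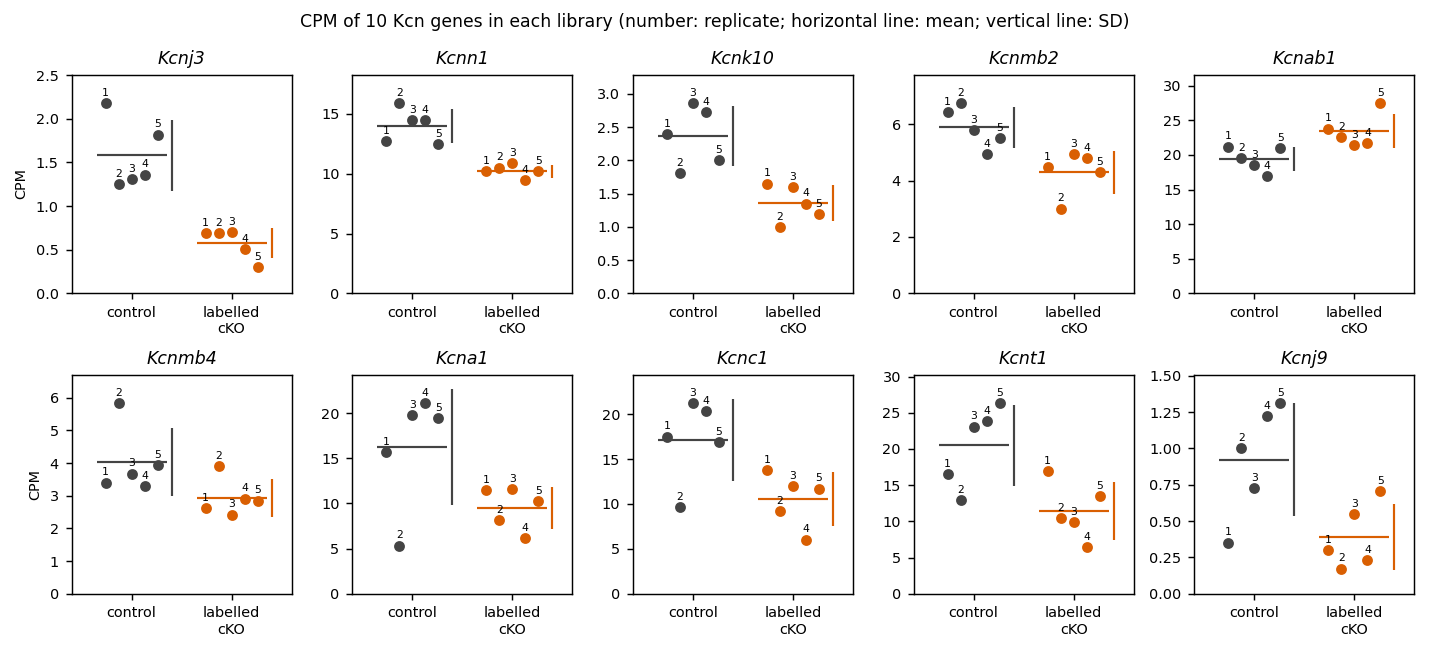
CPM of 10 members in each library, numbered by replicate, with group means as horizontal and SDs as vertical lines; grey is control and orange labelled cKO. The 5 genes of the upper row do not overlap between genotypes, and in the lower row control 2 is the lowest control for Kcna1, Kcnc1 and Kcnt1 and the highest for Kcnmb4.

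Over 9 tested K2P members the median was -0.01 (-0.08 without cKO 1, 0.06 without control 5 and -0.17 with no filter on low counts), with 0 called and 1 at an unadjusted p under 0.05. Kcnk10, a leak channel of the TREK group that responds to stretch and lipids, had 2.39, 1.81, 2.86, 2.72 and 2.00 CPM in controls and 1.65, 1.00, 1.6, 1.35 and 1.19 in the libraries labelled cKO. The groups did not overlap, with a gap between 1.65 and 1.81 CPM. Its log2 fold change was -0.79 (SE 0.199, 95% interval -1.22 to -0.36) at an edgeR adjusted p of 0.129, and 0.0165 with DESeq2. With 1 library left out, the edgeR adjusted p of Kcnk10 was 0.0517 to 0.339. Its relative Kcnk2, more abundant per length (4.20 against 0.210 FPKM), had a log2 fold change of -0.01 with an interval of -0.19 to 0.17. Kcnk1 had one of 0.09, with an interval of -0.10 to 0.29.

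Of 14 tested accessory genes, 12 had a negative log2 fold change, with a median of -0.19 (-0.11 without control 2 or cKO 3, -0.12 without cKO 4 and -0.08 on log2(FPKM + 1)). Of the 14, 0 were called, and 4 were negative and 1 positive at an unadjusted p under 0.05 (all genes 5.62% and 3.81%). Kcnmb2, a beta subunit that inactivates BK channels, had 6.44, 6.75, 5.78, 4.94 and 5.52 CPM in controls and 4.47, 3.01, 4.94, 4.79 and 4.31 in the libraries labelled cKO. Control 4 and cKO 3 differed by less than the rounding of these values. The log2 fold change was -0.45 (SE 0.152) at an edgeR adjusted p of 0.333. Kcnmb4, the neuronal BK beta subunit, had the same log2 fold change, -0.45 (SE 0.190), and 2.94 ± 0.582 in the libraries labelled cKO against 4.03 ± 1.04 in controls. Values were -0.56 for Kcnip2, a calcium sensor bound to Kcnd pores, and -0.25 for Kcnab2.

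Kcnab1, a beta subunit that speeds inactivation of Kcna channels, was the one member higher without overlap. That is 1.3% of the tested members, near the 1.13% of all genes. It had 21.2, 19.5, 18.5, 17.0 and 21 CPM in controls and 23.8, 22.6, 21.4, 21.7 and 27.5 in the libraries labelled cKO. The gap between the groups was small, from 21.2 to 21.4 CPM, and the log2 fold change was 0.27 (SE 0.0980, edgeR adjusted p 0.385). Its relative Kcnab2 had the opposite sign, and Kcnab3 had a log2 fold change of -0.22 (SE 0.152).

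Members were next grouped by known use. Of 27 members listed for neuronal use, 25 were tested and 21 had a negative log2 fold change, with a median of -0.25. At an unadjusted p under 0.05, 13 of the 25 had a negative and 0 a positive fold change, against 5.62% and 3.81% of all genes. Of the list, 1 was called (Kcnj3). Among the 52 tested members outside this list, 5 had an unadjusted p under 0.05 in the negative and 2 in the positive direction, with a median of -0.06 (-0.10 without control 2, cKO 2 or cKO 5). The 2 positive ones were Kcnab1 and Kcnh3. The neuronal list was chosen with earlier results of these data known, so the contrast with the other members depends on that choice. So does the count of 0 positive ones. Kcnab1 was off the list although its relative Kcnab2 was on it. Kcnma1, a pore of neurons too, was on the hair cell list only. The summed CPM of the neuronal list was 382, 303, 440, 438 and 423 in controls 1 to 5 and 367, 307, 358, 264 and 329 in the libraries labelled cKO. Control 2 lay among the libraries labelled cKO, and the other 4 controls lay above all of them. In 10 fits that each left out 1 library, 10 to 14 members of the list had an unadjusted p under 0.05 in the negative direction.

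Neuron markers were read beside this list. Of 15 markers, 12 had a negative log2 fold change, with a median of -0.25. At an unadjusted p under 0.05, 7 had a negative and 2 a positive fold change (all genes 5.62% and 3.81%). Elavl4 and Slc17a7 were called lower, as were 0.543% of all genes. The summed CPM of the 15 markers overlapped, at 1560 to 1787 in controls and 1040 to 1825 in the libraries labelled cKO. Control 2 had the highest sum of the controls, 1787, although its sum of neuronal Kcn genes was the lowest. For 10 glial markers (Schwann and satellite cells) the median was -0.36, with sums of 1306 to 1507 and 932 to 1383 CPM. Of 8 oligodendrocyte and astrocyte markers, 6 had a negative and 2 a positive log2 fold change. Olig1, Olig2 and Aqp4 were called lower (all genes 0.543%), and 1 marker had an unadjusted p under 0.05 in the positive direction (all genes 3.81%). This list summed to 206 to 314 CPM in controls (mean 259) and 225 to 314 CPM in the libraries labelled cKO (mean 283). The part of these cell types in the channel values was not tested. In whole tissue, fewer cells of a type and less RNA per cell cannot be told apart.

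**Figure D4:**
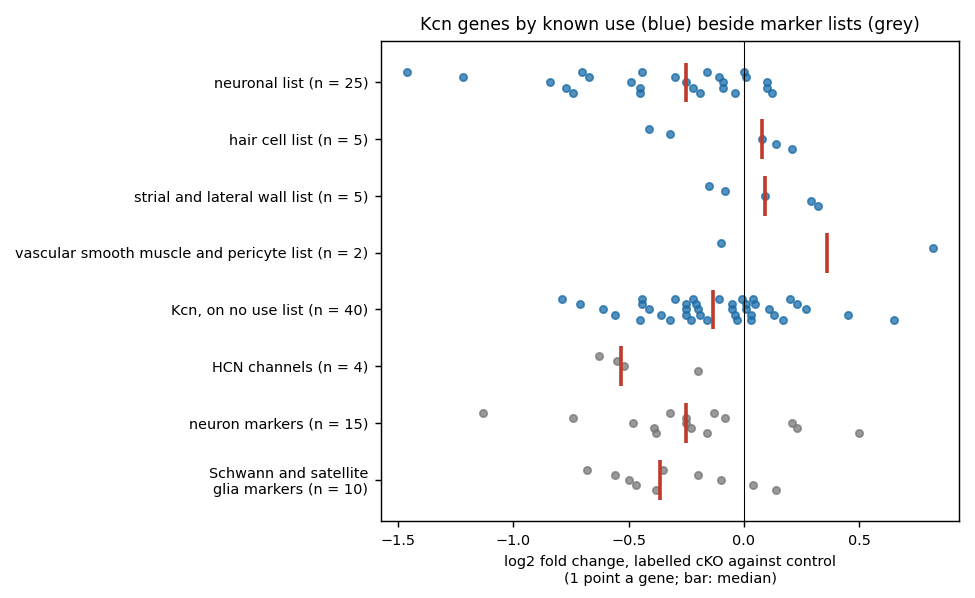
Log2 fold change of each gene as a point, with medians as red bars, for Kcn genes by known use (blue) and for comparison lists (grey). The neuronal list and the neuron markers share a median of -0.25, with -0.36 for the Schwann and satellite glia markers and -0.53 for HCN channels. The hair cell list sits at 0.08 (-0.20 without cKO 1) and the strial list at 0.09.

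The hair cell list had 5 tested members, a median of 0.08 (-0.20 without cKO 1) and 0 with an unadjusted p under 0.05. Log2 fold changes were 0.21 (95% interval -0.30 to 0.72) for Kcnj2, an inward rectifier of hair cells, and 0.08 (-0.44 to 0.60) for Kcnn2, the SK channel of efferent synapses. Kcna10 was at -0.41 (-1.25 to 0.43). Control 2 was the lowest control for Kcnj2, at 4.58 CPM (others at least 7.92), and for Kcnma1, at 12 CPM (others at least 21.5). It was the highest for Kcna10, at 3.92 CPM (others at most 2.18). Hair cell markers summed to 257 to 331 CPM in controls and 255 to 334 in the libraries labelled cKO.

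The strial and lateral wall list also had 5 tested members, with a median of 0.09 (0.15 without control 1, 0.04 without cKO 1) and 0 at an unadjusted p under 0.05. Besides Kcnk1, log2 fold changes were 0.32 (95% interval -0.09 to 0.74) for Kcnj13, 0.29 (-0.07 to 0.65) for the leak channel Kcnk6, -0.08 (-0.57 to 0.41) for Kcnj16, known from fibrocytes, and -0.15 (-0.61 to 0.31) for Kcnk5. Kcnj13 had 77 to 134 counts and overlaps exons of Gigyf2, which had 2333 to 4545. The summed CPM of the list was 54.2 to 57.1 in controls and 56.2 to 68.3 in the libraries labelled cKO, where cKO 1 alone was above 57.2. Marginal cell markers summed to 1165 to 1630 and 1580 to 1658 CPM. The 3 genes set aside by the rule had log2 fold changes of 0.21 (Kcnq1), 0.14 (Kcne1) and -0.17 (Kcnj10), each at an edgeR adjusted p of at least 0.599.

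**Figure D5:**
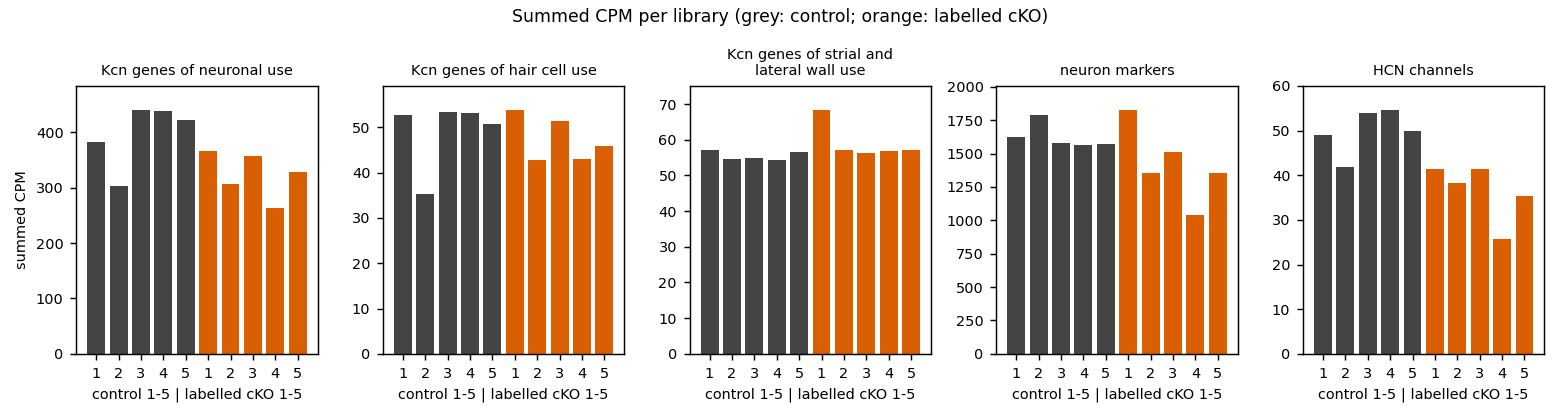
Summed CPM per library of Kcn genes of neuronal, hair cell and strial use, of neuron markers and of HCN channels; grey bars are controls 1 to 5 and orange bars the libraries labelled cKO 1 to 5, with axes from 0. Control 2 is the lowest control for the neuronal and hair cell channel sums and the highest for the neuron markers.

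Genes that work with potassium channels but have other symbols were counted as well. Of 18 tested partners (auxiliary subunits, clustering and anchoring proteins), 5 had an unadjusted p under 0.05 in the negative and 0 in the positive direction. The shares of all genes were 5.62% and 3.81%. Of the partners, 0 were called by edgeR, and the median was -0.14. The nearest to a call, named after its values were seen, was Lrrc55, a gamma subunit of BK channels. It had 8.92, 8.25, 6.45, 5.16 and 7.63 CPM in controls and 4.29, 1.89, 4.96, 2.86 and 3.03 in the libraries labelled cKO. Its CPM did not overlap between genotypes, which held for 1.66% of all genes in this direction. Its log2 fold change was -1.09 (SE 0.232) at an edgeR adjusted p of 0.0522, and 0.000458 with DESeq2. With 1 library left out, the edgeR adjusted p was 0.0281 to 0.163, and 8 of these fits did not call it. Exons of Lrrc55 overlap those of Gm13713 and Gm13716. HCN channels, also named after their values were seen, which carry the pacemaker current, had log2 fold changes of -0.63 (Hcn2), -0.55 (Hcn3) and -0.20 (Hcn4). Of the 4 HCN genes, 3 had an unadjusted p under 0.05 in the negative direction (all genes 5.62%) and 0 were called by edgeR. Their summed CPM was 41.9 to 54.6 in controls and 25.8 to 41.4 in the libraries labelled cKO.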

How the data were processed

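RNA of 10 cochlear libraries, 5 per genotype, was analysed from 2 tables that the authors deposited: whole-number counts per Ensembl gene, and FPKM values. Per the submitters' processing notes, STAR 2.5, HTSeq 0.61 and DESeq2 2 were among the tools and mm10 was the build; settings, annotation and strandedness are not given in the sources used here, so overlapping genes are named. Symbols, biotypes and positions came from GENCODE M21 (GRCm38), which held 54495 of 54532 gene IDs. For all 54 members with at least 50 counts in every library, the deposited FPKM implied the M21 exon length within 5%.

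Genes with at least 10 counts in at least 5 libraries were tested with edgeR 4.0.16 (TMM factors, robust quasi-likelihood F-test, genotype as the only term), with Benjamini-Hochberg adjustment over all 18061 genes and a threshold of 0.05. CPM were computed from TMM-scaled totals of tested genes. Intervals are 95% and come from the SE. The code was tested on simulated data. Alternatives were DESeq2 1.42.0, limma 3.58.1 (voom with quality weights, and log2 of FPKM plus 1 or 0.1), other filters, size factors and thresholds, a replicate block, and leaving out each library. Members and lists were chosen with earlier results of these data known. Named by rule were Esrrg, called and non-overlapping members, the 10 highest by FPKM, the 2 smallest p in each family, and the hair cell and strial lists; the rule also took in called channel partners. Each library is 1 animal, so p-values measure the spread between animals. A few genes that entered the fit and the list counts are not reported here by name.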

Additional observations from a re-analysis of the deposited data

Results flagged for a closer look

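In each genotype, 48 measures (named genes and summed lists) were examined, 96 groups in all. A library was flagged if its gap to its nearest neighbour, divided by the range of its group, exceeded Dixon's critical value. Chance flags about 5% of groups, or 4.8 here, and 8 were found. Control 2 accounted for 4. It was low for Kcnj2 (4.58 CPM, others 7.92 to 8.81), Kcnma1 (12, others 21.5 to 24.9) and the summed hair cell list (35.2, others 50.7 to 53.3), and high for Kcnmb4 (5.83, others 3.30 to 3.93). Kcnj2 and Kcnma1 are part of the hair cell sum, so these cases are not independent.

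Kcnk5 was high in control 5, at 12.6 CPM with 5.19 to 7.18 in the other controls. Among the libraries labelled cKO, Kcnh3 was low in cKO 3 (1.05 CPM, others 1.53 to 1.61) and Hcn4 was low in cKO 4 (9.95 CPM, others 13.3 to 14.2). The summed strial and lateral wall list was high in cKO 1, at 68.3 CPM with 56.2 to 57.2 in the others.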

How the results depend on the processing

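The count of members called lower, 1 as reported, was 4 with DESeq2, 9 with limma-voom, 0 with limma on log2(FPKM + 1), 0 with the replicate block and 2 at an adjusted p threshold of 0.1. It ran from 0 to 4 when 1 library was left out, with 4 without control 2, Kcna1 and Kcnj3 among them, and 0 without control 1, 3 or 5 or cKO 2, 4 or 5. Over all genes, calls in either direction numbered 111 as reported, 307 with DESeq2, 352 with limma-voom and 194 without control 2. The count of members called higher was 0 in all 20 alternatives. The log2 fold change of Esrrg was 0.57 and 0.61 on log2(FPKM + 1) and log2(FPKM + 0.1) and 0.61 with the replicate block, each with an adjusted p above 0.05, and 0.54 to 0.69 with 1 library left out. Whether replicate numbers pair the samples was not settled. Correlations of same-numbered deviations were low, at 0.02 to 0.18, but control and cKO libraries 2, 3 and 5 correlated best with each other while 1 and 4 did not. The block took the adjusted p of Kcnj3 to 0.0579. On log2(FPKM + 1) its log2 fold change was -0.23, a scale that shrinks low genes.

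Of the 37 named genes examined here, which leave out Kcnn3, Kcnn4, Kcnab3 and Kcna5, 19 kept their direction and side of the threshold in every setting in which they were tested. The sign reversed for 7 of the other genes examined. With 1 library left out, log2 fold changes ran from -0.11 to 0.12 for Kcne4, -0.04 to 0.02 for Kcnk2, -0.12 to 0.04 for Kcne1l, -0.62 to 0.08 for Kcna10, -0.20 to 0.22 for Kcnn2, -0.18 to 0.15 for Kcnj16 and -0.26 to 0.13 for Kcnk5. With limma-voom they were 0.24 for Kcna10, -0.15 for Kcnn2 and 0.08 for Kcnj16. The cause was not tested. The median of the neuronal list lay between -0.34 and -0.15 over all alternatives. Kcnj9 rests on 6 to 51 counts and Kcnj3 on 11 to 93.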

Other observations

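Kcna5, on the list of vascular smooth muscle and pericytes, varied most among members with a mean of at least 1 FPKM, with a coefficient of variation of 82.0% over the 10 libraries. It had 9.73 CPM in cKO 1 and 1.44 to 3.44 CPM in the other 9 libraries.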
